A study of Mus musculus with 2 samples.

Results

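Mouse chromosome 12 outside the immunoglobulin heavy-chain locus was examined for differences in open chromatin between its 129 and its castaneus (CAS) copy. The region comprised every 50 kb window of chromosome 12 that ended at or before 112 Mb or began at or beyond 117.5 Mb, which gave 1986 of the 43941 windows of the table. The cells were F121-6 embryonic stem cells, a female hybrid line with a 129 and a CAS chromosome set, grown in medium with serum and LIF on feeder fibroblasts treated with mitomycin C. ATAC-seq uses a transposase that inserts adapters where DNA is open. It gave 2 replicates of this 1 group, R1 and R2, and each has a count for the 129 allele and a count for the CAS allele. Separate cultures are not mentioned for R1 and R2, so the spread between them may be technical, and all values describe 1 cell line. Because the region and the stretches below were chosen by their counts, those counts are given as a description.

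Open chromatin marks promoters, enhancers and other sites where regulatory proteins keep nucleosomes away from DNA. In a hybrid cell both chromosome copies share the same proteins, so they can be compared within the same nuclei. Chromosome 12 carries Esrrb, Mycn and Tcl1, which mouse stem cells express, the imprinted Dlk1-Dio3 domain, large neural genes separated by gene deserts, and a cluster of serpin genes used in liver.

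The 4 promoters shown here belong to the coding genes that begin inside the most unbalanced windows. They are the 2 genes per allele with the largest summed difference, among genes that begin in a window with a difference of 2 or more counts the same way in each replicate. Cipc, which encodes a repressor of the circadian factor Clock, and Max, the dimerization partner of Myc proteins, begin in windows with more 129 counts. Cdhr3, a cadherin-related gene, and Ttc7b, part of a complex that brings a phosphatidylinositol kinase to the plasma membrane, begin in windows with more CAS counts. Each sequence is the 250 bases before an annotated start of the gene on the reference genome, from RefSeq on GRCm38.p6. It is read 5′ to 3′ on the strand of the gene. For Cipc, Max and Cdhr3 that start lies inside the span of the gene, for Cipc at 86947041 in a gene from 86944741 to 86965364. They lie at chr12:86946791-86947040 on the plus strand (Cipc), chr12:76962249-76962498 on the minus strand (Max), chr12:33092876-33093125 on the minus strand (Cdhr3) and chr12:100520838-100521087 on the minus strand (Ttc7b). Capitals mark 4 short motifs on either strand, the CCAAT box, the GC box (GGGCGG), the E-box (CACGTG) and the TATA box (searched as TATAAA).
Cipc: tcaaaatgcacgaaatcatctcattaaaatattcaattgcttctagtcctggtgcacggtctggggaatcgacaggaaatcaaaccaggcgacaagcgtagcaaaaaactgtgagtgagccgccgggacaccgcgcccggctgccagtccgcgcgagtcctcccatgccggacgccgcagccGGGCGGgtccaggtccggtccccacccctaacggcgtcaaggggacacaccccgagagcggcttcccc
Max: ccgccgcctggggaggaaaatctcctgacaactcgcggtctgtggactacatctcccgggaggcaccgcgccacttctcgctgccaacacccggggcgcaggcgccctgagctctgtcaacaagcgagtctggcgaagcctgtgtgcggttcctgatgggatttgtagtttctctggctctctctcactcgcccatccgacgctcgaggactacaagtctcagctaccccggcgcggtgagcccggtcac
Cdhr3: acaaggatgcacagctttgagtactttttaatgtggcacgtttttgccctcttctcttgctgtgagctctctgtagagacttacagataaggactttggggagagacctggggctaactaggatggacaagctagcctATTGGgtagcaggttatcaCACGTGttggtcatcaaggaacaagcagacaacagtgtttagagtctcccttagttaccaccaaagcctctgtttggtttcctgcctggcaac
Ttc7b: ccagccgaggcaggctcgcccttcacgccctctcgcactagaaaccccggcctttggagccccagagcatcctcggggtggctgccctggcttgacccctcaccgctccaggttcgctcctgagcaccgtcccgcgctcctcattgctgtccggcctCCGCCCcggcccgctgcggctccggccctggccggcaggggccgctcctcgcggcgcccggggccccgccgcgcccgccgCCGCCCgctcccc
The printed promoters of Cipc and Ttc7b held 1 and 2 GC boxes, that of Cdhr3 held 1 CCAAT box and 1 E-box, and that of Max held none of the 4 motifs, and no matches overlapped. Among the 21263 promoters of coding genes, 35.4% held the CCAAT box, 42.6% the GC box, 6.63% the E-box and 11.6% the TATA box within the same 250 bases. The sequences are those of the C57BL/6J reference, not of the 129 or CAS alleles, and a 50 kb window does not show whether its counts lie at the promoter.

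Across the whole region the alleles were close to balance. The counts were 1795 on 129 and 1756 on CAS in R1 and 2661 on 129 and 2403 on CAS in R2. The 129 share was therefore 50.5% in R1, with an exact Clopper-Pearson 95% interval of 48.9 to 52.2%, and 52.5% in R2, with one of 51.2 to 53.9%, a mean of 51.5% ± 1.41 (SD, n = 2). The interval includes equal shares in R1 and excludes them in R2. These intervals cover counting error only. In the other 41955 windows the share was 48.8% in R1 and 49.8% in R2. Among the 18 other chromosomes, 4 had a higher share in R1 and 3 in R2, with a range of 44.5 to 59.8% in R1 and 41.8 to 56.0% in R2, and this rank was not tested. The excluded heavy-chain interval of chromosome 12 had a lower share, 45.1% and 47.0%, from 106 windows.

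The counts are small and their read depth is unknown. They run from 0 to 18 in a window of the whole table and averaged 0.904 (129) and 0.884 (CAS) per window of the region in R1 and 1.34 and 1.21 in R2. In windows of the region with 4 or more counts, the squared difference between alleles was 0.280 (R1) and 0.471 (R2) of what independent reads would give. The binomial intervals assume independent counts, so they may be too wide here. Of the region's windows 538 (27.1%) had no count in any of the 4 columns, against 21.4% of the other windows. Another 241 windows of the 50 kb grid were not in the table. The number of 129 and CAS sequence differences per window was not used here, so a 0 does not show that a window was closed. Stem cell genes had counts on both alleles: Esrrb, which helps hold mouse stem cells in the pluripotent state, had 19 (129) and 20 (CAS) in R1 and 22 and 28 in R2. All 12 fibroblast markers listed for the feeder cells and found in the region also had counts, 38 on 129 and 34 on CAS in R1 and 37 and 42 in R2. So did 531 of 572 coding genes examined in the region, and the marker Twist1 had 1 count in all. Of these markers 1 was higher on 129 in both replicates (Fbln5, an elastic fibre gene, 7 and 5 in each), 2 were higher on CAS (Smoc1 with 1 and 2, then 2 and 4, and Matn3 with 5 and 6, then 6 and 7) and 9 were neither. The strain of the feeders is not given in the sources used here, and the part of feeder DNA in the allelic values was not tested.

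Along the chromosome, the 129 share was lowest from 5 to 15 Mb and highest from 100 to 105 Mb. The region was divided into 24 segments of up to 5 Mb. Of these, 10 had more 129 counts in both replicates and 3 had more CAS counts in both, against 27.2% and 40.4% of all 500 segments of the table. The segment from 10 to 15 Mb was the lowest in R1 (41.8%) and the second lowest in R2 (45.1%), and the one from 5 to 10 Mb was the second lowest in R1 (43.8%) and the lowest in R2 (41.7%). The segment from 100 to 105 Mb was the highest in both, at 55.0% and 58.2%. Its neighbour from 105 to 110 Mb was at 52.6% and 56.4%. The exact 95% intervals for counting error were wide: they included equal shares in both replicates for the 2 segments from 5 to 15 Mb (32.7 to 55.3% in R1 and 31.7 to 52.2% in R2 for the first), and excluded them only in R2 for the segment from 100 to 105 Mb (49.1 to 60.8% in R1 and 52.7 to 63.5% in R2). The shares of the 24 segments correlated between replicates with Pearson's r = 0.651 and Spearman's rho = 0.434, as a description across neighbouring parts of 1 chromosome measured in the same libraries.

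**Figure D1:**
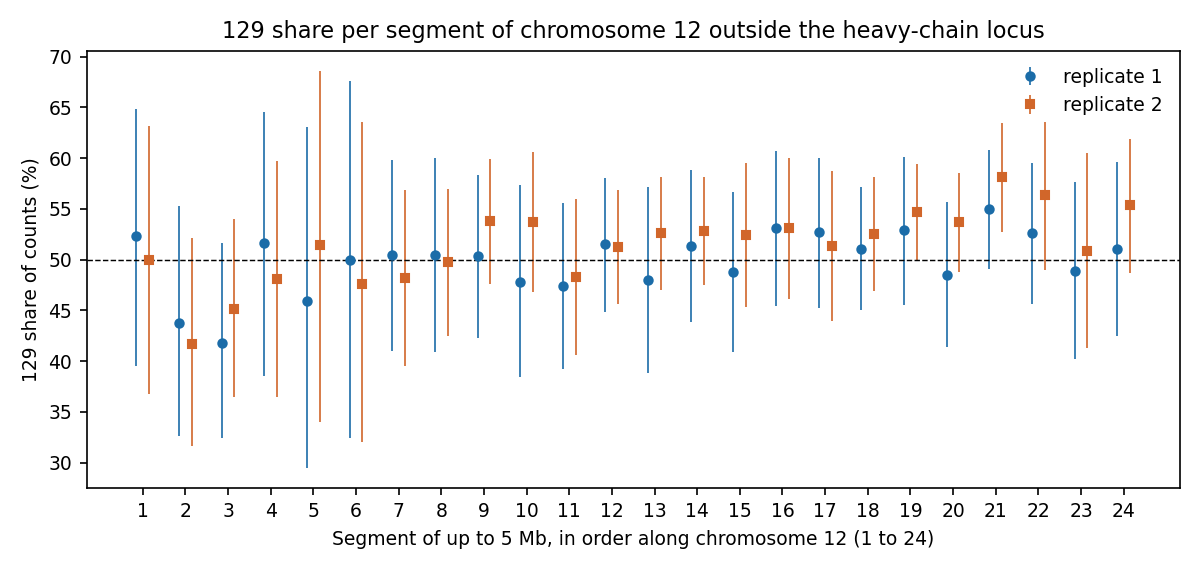
The 129 share of counts (percent, with exact 95% intervals for counting error) is plotted for 24 segments in order along chromosome 12, with circles for R1 and squares for R2 and a dashed line at 50%. Segments 2 and 3 lie below the line in both replicates, at 41.7 to 45.1%, and segments 21 and 22 lie above it, at 52.6 to 58.2%.

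The stretch from 5 to 15 Mb favoured CAS. It held 81 counts on 129 and 109 on CAS in R1 and 100 and 129 in R2, so that the 129 share was 42.6% and 43.7%. Of its 195 windows, 99 had no counts, 2 (1.03%) had more 129 counts and 17 (8.72%) had more CAS counts in both replicates, against 8.96% and 9.87% of all windows of the table. Over all windows, the share with CAS higher was not above that of the table, and the share with 129 higher was below it. These shares include windows without counts, 99 of 195 here against 21.7% of all windows. They are therefore not compared on equal terms. Of its 10 bins of 1 Mb, 0 favoured 129 and 7 favoured CAS in both replicates, against 23.7% and 33.3% of all bins. Removing the window with the most counts left the share at 42.5% and 43.6%. It overlaps 28 coding genes, counting a gene that crosses a segment border in each segment.

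Within this stretch the counts were spread over known genes and the space between them. From 8 to 9 Mb, where Apob (the lipoprotein backbone), Gdf7 (a ligand of the bone morphogenetic protein family), Rhob (a small GTPase), Pum2 (an RNA-binding repressor of translation) and Sdc1 (a cell-surface proteoglycan) lie, there were 19 on 129 and 23 on CAS in R1 and 20 and 24 in R2. From 12 to 13 Mb, which holds Cyria and Mycn, there were 16 and 19, then 16 and 26. Cyria, an inhibitor of actin remodelling through Rac1 named here after its values were seen, had 2 and 4, then 2 and 7. Mycn, the Myc family gene of stem and progenitor cells, was not of one direction, with 5 on 129 and 3 on CAS in R1 and 2 and 7 in R2. Adjacent windows from 8850001 to 8950000 both had more CAS counts in R1 and R2, and together held 4 on 129 and 8 on CAS, then 6 and 8. The first, with 0 and 3, then 1 and 2, overlaps no coding gene. The second, with 4 and 5, then 5 and 6, overlaps Laptm4a, a lysosomal membrane protein gene, and Matn3, a cartilage matrix gene. A further pair, from 8300001 to 8400000, had 4 and 6, then 3 and 5. Only its first window overlaps coding genes, namely Ldah, Gdf7 and Hs1bp3. Over all their windows Ldah (8 and 7, then 5 and 5) and Gdf7 (7 and 6, then 4 and 4) did not lean to CAS. Smc6, a subunit of the chromosome-maintenance complex that acts in DNA repair, had 3 on each allele in both replicates.

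The stretch from 100 to 110 Mb favoured 129. It held 270 counts on 129 and 230 on CAS in R1 and 302 and 223 in R2, with a 129 share of 54.0% and 57.5%. Of its 194 windows, 41 (21.1%) had more 129 counts and 12 (6.19%) had more CAS counts in both replicates, against 8.96% and 9.87% of all windows. Of its 10 bins, 7 favoured 129 and 0 favoured CAS, against 23.7% and 33.3% of all bins. Without the window with the most counts the share was 54.2% and 57.9%. The 1 Mb bin with the largest fitted difference of the region lay here, from 101 to 102 Mb. It had 27 counts on 129 and 19 on CAS in R1 and 38 and 19 in R2. Only 14 windows of that bin were in the table, where a complete bin holds 20.

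Several neighbouring genes of that bin were on the 129 side. Trip11, which encodes a golgin that tethers vesicles, had 8 counts on 129 and 4 on CAS in R1 and 9 and 3 in R2. Ppp4r3a, a regulatory subunit of protein phosphatase 4, had 8 and 5, then 13 and 6, and Atxn3, a deubiquitinase gene, had 5 and 3, then 6 and 4. Ccdc88c, a Dishevelled-binding regulator of Wnt signalling, had 11 and 10, then 18 and 10. Catsperb, a subunit of the sperm calcium channel, had 1 and 2, then 4 and 1, and so was not of one direction. Genes that share a window share its counts.

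Of the adjacent bins, the one from 100 to 101 Mb did not lean to 129 in both replicates, with 41 on 129 and 41 on CAS in R1 and 52 and 46 in R2. From 102 to 103 Mb, over Itpk1 (an inositol phosphate kinase), Chga (the secretory granule protein chromogranin A) and Golga5 (a golgin), there were 49 on 129 and 38 on CAS, then 57 and 43. Unc79, which encodes a partner of the sodium leak channel NALCN, spans the border to the next bin and had 5 counts on 129 and 1 on CAS in R1 and 7 and 0 in R2. Among coding genes of the region with 10 or more counts it had the largest log2 ratio in the replicate where the ratio was smaller, and it was named after its values were seen. From 104 to 105 Mb, over the Serpina3 genes, Gsc (the organizer homeobox gene goosecoid) and Dicer1 (the ribonuclease that matures microRNAs), there were 29 and 22, then 27 and 20. Dicer1 itself was near balance, with 8 and 7, then 6 and 5. Eml1, a microtubule-associated protein gene near 108 Mb, had 11 and 5, then 9 and 3, and was also named after its values were seen.

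The longest 129-sided stretch ran from 75 to 95 Mb, over 4 adjacent segments, with smaller differences. It held 432 counts on 129 and 394 on CAS in R1 and 613 and 538 in R2, with a 129 share of 52.3% and 53.3%. Of its 373 windows 44 (11.8%) had more 129 counts and 29 (7.77%) more CAS counts in both replicates, against 8.96% and 9.87% of all windows. Of its 19 bins 9 (47.4%) favoured 129 and 2 (10.5%) favoured CAS, against 23.7% and 33.3% of all bins. It overlaps 176 coding genes, again counting a gene that crosses a segment border in each segment. Esrrb, Max, Rad51b and Nrxn3 are among them, and of these Esrrb was itself on the CAS side. Of the other 129-sided segments, that from 40 to 45 Mb held 80 on 129 and 79 on CAS in R1 and 143 and 123 in R2. The segment from 55 to 60 Mb held 120 and 113, then 163 and 155, and that from 65 to 70 Mb held 94 and 89, then 187 and 167. The last one, from 117.5 Mb to the end, held 72 on 129 and 69 on CAS, then 129 and 104. The segment from 50 to 55 Mb was the third on the CAS side, with 72 on 129 and 80 on CAS, then 83 and 89.

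At single windows the differences were few. A window counts here as unbalanced if R1 and R2 both have 1 allele above the other by at least 3 counts, the same way. In the region 5 windows had 129 higher and 1 had CAS higher by that rule (0.252% and 0.0504%), against 0.234% and 0.271% of all windows of the table. In 1 further window the replicates were opposite, against 0.041% of all windows. With every difference counted, 185 windows (9.32%) had 129 higher in both replicates and 136 (6.85%) had CAS higher, against 8.96% and 9.87% of all windows. Opposite signs were seen in 122 (6.14%), against 7.59%.

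The 5 windows with 129 higher overlapped no coding gene. The window at 94500001 to 94550000 had 4 counts on 129 and 0 on CAS in R1 and 6 and 1 in R2. Its nearest coding gene is Flrt2, a membrane ligand that guides growing axons, at 1142006 bp. The window at 105050001 to 105100000, 9090 bp from Glrx5 (a mitochondrial glutaredoxin for iron-sulphur clusters), had 4 and 0, then 7 and 2. The window at 43200001 to 43250000, 955897 bp from Dnajb9 (a co-chaperone of the endoplasmic reticulum), had 4 and 1, then 7 and 2. That at 86800001 to 86850000, 30703 bp from Irf2bpl (a nuclear regulator of transcription), had 6 and 3, then 8 and 3. The fifth, at 79850001 to 79900000, lay 1741 bp from Rad51b, a gene of homologous recombination, and had 3 and 0 in both replicates. Of these windows, those near Flrt2 and Dnajb9 lie in gene deserts. The nearest genes are named for orientation only.

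The window with CAS higher lay at 76550001 to 76600000, over Plekhg3, which encodes an activator of small GTPases, and Sptb, the beta-spectrin gene of red cells. R1 and R2 both had 0 on 129 and 3 on CAS there. Over all its windows Sptb had 2 on 129 and 6 on CAS, then 2 and 4, and Plekhg3 had 4 and 8, then 6 and 7. The window with opposite differences lay over Foxn3, a forkhead repressor gene, at 99350001 to 99400000, with 5 on 129 and 10 on CAS in R1 and 10 and 7 in R2. Just outside the rule stood the Cipc window with 9 and 7, then 9 and 3, and the Cdhr3 window with 1 and 3, then 0 and 5. Over all its windows Cipc had 11 and 11, then 11 and 4, so the gene was not higher on 129 in both replicates.

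**Figure D2:**
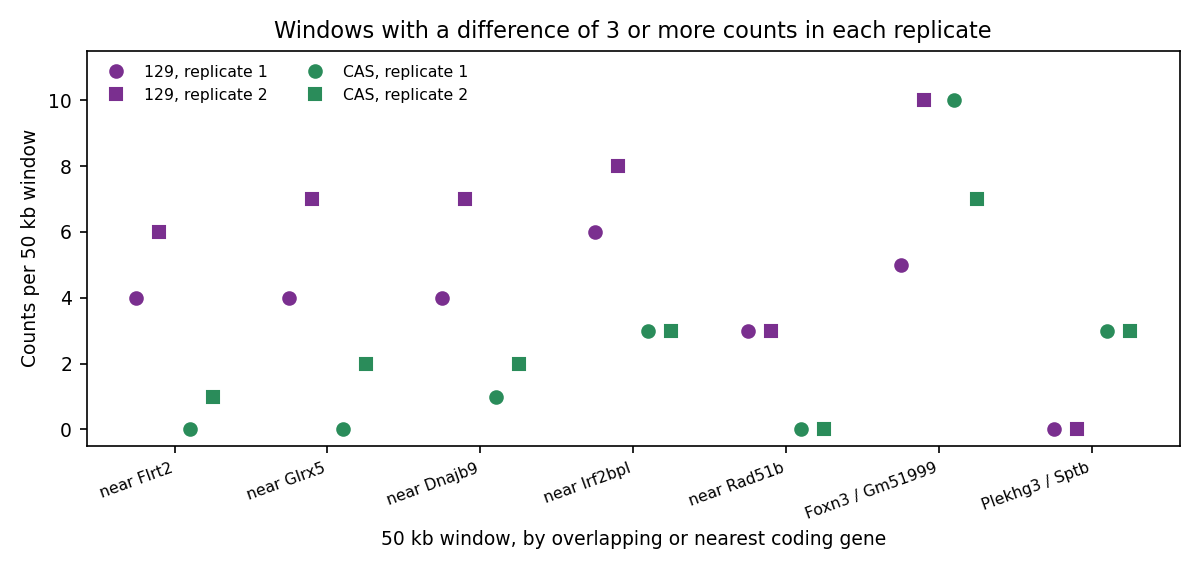
Counts per 50 kb window are plotted for the 7 windows where R1 and R2 both differ by at least 3 counts, 129 left of CAS within each window, with circles for R1 and squares for R2. In the first 5 windows both 129 values lie at or above both CAS values of the same window, in the Foxn3 window the replicates are opposite, and in the Plekhg3 and Sptb window the 129 values are 0 and the CAS values are 3.

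Windows with counts from 1 genome alone were found on both sides. In 62 windows of the region (3.12%) counts were on 129 in both replicates with 0 on CAS, and in 50 (2.52%) they were on CAS with 0 on 129, against 2.72% and 2.94% of all windows of the table. Those with 5 or more counts in all were 4. Besides the windows near Rad51b and over Sptb, they lay at 59650001 to 59700000, 428040 bp from Fbxo33, with 0 on 129 and 2, then 3, on CAS, and at 54350001 to 54400000, 146127 bp from Egln3, with 0 on 129 and 1, then 4, on CAS. The next window after that near Egln3 was on the CAS side too, so that the pair held 0 on 129 in both replicates and 2, then 5, on CAS. They were named after their values were seen.

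A window chosen in 1 replicate can be read in the other, which played no part in that choice. Of 12 windows with 129 higher by 3 or more in R1, 11 had 129 higher in R2, 1 was tied and 0 were opposite, with a median difference of 2 counts. For all windows, 72.5% of 335 such windows kept the direction. Of 11 windows with CAS higher by 3 or more in R1, 5 had CAS higher in R2, 3 were tied and 3 were opposite, with a median difference of 0; for all windows 63.6% of 494 kept it. In the other order, 27 of 62 windows (43.5%) chosen for 129 in R2 and 13 of 29 (44.8%) chosen for CAS kept their direction in R1, against 53.3% and 58.9% over the table. The proposal of the region drew on both replicates, so these counts are a description.

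Runs of adjacent windows were short. A run of 3 or more adjacent windows higher on the same allele in both replicates was found 1 time for 129 and 0 times for CAS. Per 1000 windows that is 0.504 and 0, against 1.68 and 2.14 over the table. The run spanned 4 windows from 94350001 to 94550000, in the gene desert before Flrt2, with 7 counts on 129 and 0 on CAS in R1 and 18 and 8 in R2. Its windows had 1, 1, 1 and 4 counts on 129 in R1, with 0 on CAS in each. In R2 they had 4, 4, 4 and 6 on 129 and 3, 3, 1 and 1 on CAS. The flanking windows held 1 count each, on 129 in R2.

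Pairs of adjacent windows were more common, 27 for 129 and 13 for CAS, that run included. Per 1000 windows that is 13.6 and 6.55, against 9.99 and 11.9 over the table. On the 129 side the pairs with the most counts lay over Ston2 (an endocytic adaptor) and Sel1l (a component of protein degradation at the endoplasmic reticulum), with 9 and 5 counts (129 and CAS), then 12 and 8, and inside Itpk1, with 8 and 6, then 11 and 9. The next lay over Ccdc88c with Ppp4r3a (8 and 5, then 13 and 6). Another covered Actr10 (a dynactin subunit), Psma3 (a proteasome subunit) and Arid4a (a retinoblastoma-binding protein), with 9 and 4, then 8 and 6. The pair from 72750001 to 72850000 had 8 and 5 in both replicates. Ppm1a, a protein phosphatase gene, overlaps only the first window of that pair and had 3 and 2, then 4 and 2. On the CAS side the pair after that at Laptm4a and Matn3 by counts ran from 40950001 to 41050000, with 4 and 6, then 5 and 9. Only its second window overlaps Immp2l, a mitochondrial peptidase gene that spans 41024061 to 41955588. Immp2l over its whole length had 20 and 19, then 33 and 32, so the pair and the gene do not lean the same way. Other CAS pairs covered Cog5, Hbp1 and Prkar2b (a Golgi tether, an HMG-box repressor and a regulatory subunit of protein kinase A; 3 and 5, then 2 and 5) and Odc1, the enzyme that starts polyamine synthesis (2 and 4 in both replicates). A CAS pair from 62850001 to 62950000 lay 992073 bp from the nearest coding gene, Lrfn5, with 1 and 3, then 5 and 9.

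In bins of 1 Mb, 32 of 112 bins favoured 129 and 19 favoured CAS in both replicates, against 23.7% and 33.3% of all bins of the table. With 10 or more counts in each replicate there were 94 bins, of which 30 favoured 129 and 17 favoured CAS. The bin with the largest ratio shared by the replicates ran from 43 to 44 Mb, a desert with no coding gene, with 8 on 129 and 4 on CAS, then 21 and 11. Its mean log2 ratio of 129 over CAS, with a pseudocount of 0.5, was 0.91 ± 0.01 (SD, n = 2), and its counts were too low for the count filter of the edgeR test given below. The bins from 47 to 48 Mb (11 and 7, then 21 and 13) and from 48 to 49 Mb (13 and 10, then 26 and 19) also overlap no coding gene. The bin beside them, from 46 to 47 Mb over Nova1, a neuronal splicing factor gene, leaned the other way, with 5 and 7, then 13 and 17. The bin from 79 to 80 Mb, with Rad51b, Arg2 (an arginase) and Zfyve26 (an autophagy-related gene), had 22 and 15, then 26 and 19. The eighth 129 bin by this order, from 66 to 67 Mb over Mdga2, a synapse regulator, had 15 and 10, then 38 and 30.

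The bins on the CAS side had smaller ratios. From 14 to 15 Mb, over Lratd1, there were 6 counts on 129 and 10 on CAS, then 7 and 10, a mean log2 ratio of -0.59 ± 0.15 (SD, n = 2), again below that filter. From 38 to 39 Mb, over the end of Dgkb (a diacylglycerol kinase) and Etv1 (an ETS transcription factor), there were 7 and 9, then 14 and 18. From 17 to 18 Mb, over Odc1, Pdia6 (a disulphide isomerase) and Nol10, there were 11 and 14, then 12 and 15. From 81 to 82 Mb, over Smoc1 (a calcium-binding matrix protein) and Map3k9 (a kinase of the JNK pathway), there were 12 and 15, then 13 and 17. The bin from 5 to 6 Mb, over Atad2b and Klhl29, had 8 and 10, then 7 and 10.

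**Figure D3:**
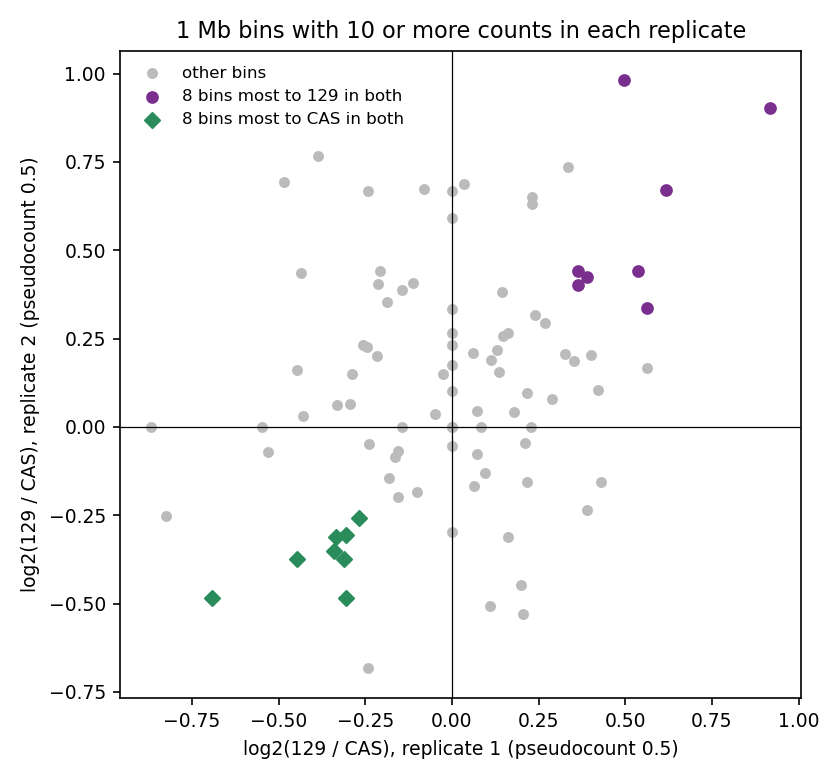
Each point is 1 of the 94 bins of 1 Mb with 10 or more counts in each replicate, at its log2 ratio of 129 over CAS in R1 (x) and R2 (y), with purple circles for the 8 bins that most favoured 129 in both replicates and green diamonds for the 8 that most favoured CAS. The shared 129 ratios reach further from 0 (0.92 and 0.90 in the bin from 43 to 44 Mb) than the shared CAS ratios (-0.69 and -0.49 in the bin from 14 to 15 Mb).

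No bin or window of the region passed a test fitted over the whole table. edgeR's quasi-likelihood test called 0 of 83 bins of the region that passed the count filter at an adjusted p under 0.05, and 0% of the 2096 bins of the table. At an unadjusted p under 0.05 it had 1 bin of the region, that from 101 to 102 Mb (log2 difference 0.79, SE 0.27 derived from the F statistic, edgeR adjusted p = 0.997). With the replicate as a block edgeR called 0.334% of all bins and 0 of the region, where the same bin had an adjusted p of 0.301. The DESeq2 Wald test also called 0, with 0 bins of the region at an unadjusted p under 0.05. Of 1448 windows of the region with a count, edgeR called 0 (0% of 34417 in the table), with 35 at an unadjusted p under 0.05, against 910 over the table. In simulated counts the fit without the block found 0% of bins altered 1.5-fold and 82.5% of bins altered 2-fold among 2084 and 2074 bins. With the block it found 21% and 83%, so most 1.5-fold differences of single simulated bins were missed by either fit. The altered bins were drawn from those above the median mean count of the table. The real allele differences spread less than independent reads would give, so these rates need not hold for the region.

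Over all coding genes of the region the alleles were similar. Of 531 genes with a count in the windows they overlap, 85 (16%) had more 129 counts and 68 (12.8%) more CAS counts in both replicates, against 14.5% and 15.5% of the 17074 coding genes of the table. The median of 129 minus CAS, summed over replicates, was 0 in the region and 0 over all coding genes. The 8 gene lists held 132 genes with a window, of which 112 had a count. Of these, 27 had more 129 counts and 12 more CAS counts in both replicates. With only the window of each gene's start the numbers were 12 and 12, and with the next window added on each side 21 and 20, so the excess of 129 among the listed genes depends on which windows are counted.

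Genes on the list of pluripotency and stem cell genes lay on both sides. Of 14 with a count, 4 (28.6%) favoured 129 in both R1 and R2 and 2 (14.3%) favoured CAS, against 14.5% and 15.5% of all coding genes, with a median difference of 0.5 counts. With the window of the gene start alone these were 2 and 2, and with the next window added on each side 3 and 2. Prox2 and Lin52, on this list though not markers of pluripotency, were also on the 129 side, each with 3 and 2 in both replicates. Their place there rests on a difference of 1 count per replicate. Max had 10 on 129 and 5 on CAS in R1 and 7 and 4 in R2, and Zfp36l1, which encodes a protein that hastens decay of messenger RNAs, had 5 and 3, then 5 and 4. Odc1 and Esrrb were on the CAS side. Tcl1, a coactivator of the kinase Akt, had 2 and 2, then 3 and 2. Dnmt3a, a de novo DNA methyltransferase, had 1 and 1, then 0 and 2.

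Transcription factors of later lineages had 7 of 20 genes higher on 129 and 0 higher on CAS, with a median difference of 1 count. The shares of all coding genes of the table were 14.5% and 15.5%. In R1 alone 12 were higher on 129 and 6 on CAS, and in R2 alone 11 and 3. With the window of the gene start alone these were 4 and 2, and with the next window added on each side 6 and 3. Foxa1, a pioneer factor of endoderm, had 7 on 129 and 6 on CAS, then 8 and 7, and Sp8, a limb and forebrain factor, had 8 and 6, then 10 and 9. Nkx2-1, a factor of lung, thyroid and forebrain, had 3 and 2, then 4 and 3. Bcl11b, a T cell and neuron factor, had 5 and 2, then 2 and 1, and Gsc had 3 and 2, then 3 and 1. The differences are of 1 to 3 counts.

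The imprinted Dlk1-Dio3 domain had few counts. Dlk1, a Notch-like ligand expressed from the paternal copy, and the genes Rtl1, Rian and Mirg had 0 counts in all 4 columns. A count of 0 allows up to 3 counts in each column, and it does not show closed chromatin where the alleles may lack sequence differences to tell them apart, which was not tested. Meg3, the non-coding RNA of the maternal copy, had 4 on 129 and 4 on CAS in R1 and 2 and 7 in R2. Dio3, the deiodinase gene at the end of the domain, had 1 and 2, then 1 and 1. Of the 5 listed genes with a count, 0 had the same direction in both replicates. Which strain was the mother is not used here, so these counts do not test imprinting.

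Long neural genes had 6 of 17 (35.3%) higher on 129 and 2 (11.8%) higher on CAS, against 14.5% and 15.5% of all coding genes, with a median difference of 1 count. This order turned round both with the window of the gene start alone and with the next window added on each side, to 1 on 129 and 3 on CAS each time. Nrxn3, a presynaptic adhesion gene, had 23 on 129 and 22 on CAS in R1 and 51 and 37 in R2. Mdga2 had 7 and 8, then 30 and 19, so that its 129 excess was in R2. Nrcam, a neural adhesion molecule, had 13 and 9, then 16 and 15. Rgs6, a regulator of G protein signalling, was on the CAS side with 1 and 3, then 1 and 2.

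The remaining lists held few or small differences. Replication, repair and chromatin genes had 6 of 23 (26.1%) higher on 129 and 2 (8.7%) on CAS, against 14.5% and 15.5% of all coding genes, with a median of 1. With the window of the gene start alone these were 3 and 2. Yy1, a zinc finger factor, had 4 and 3, then 5 and 3. Mnat1, an assembly factor of the CDK-activating kinase, had 1 and 2, then 2 and 5. Signalling genes had 2 on 129 and 2 on CAS of 20, with a median of 1. Rapgef5, an exchange factor for Rap GTPases beyond the heavy-chain locus, had 16 and 14, then 24 and 15. Egln3, a prolyl hydroxylase that senses oxygen, had 7 and 9, then 8 and 11. In the serpin A cluster 10 of 23 genes had a count, of which 1 favoured 129 and 2 favoured CAS, and the Serpina1 genes of alpha-1 antitrypsin, Serpina1a to Serpina1e, had 0 in all columns. Fibroblast markers had 1 of 12 higher on 129 and 2 on CAS.

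**Figure D4:**
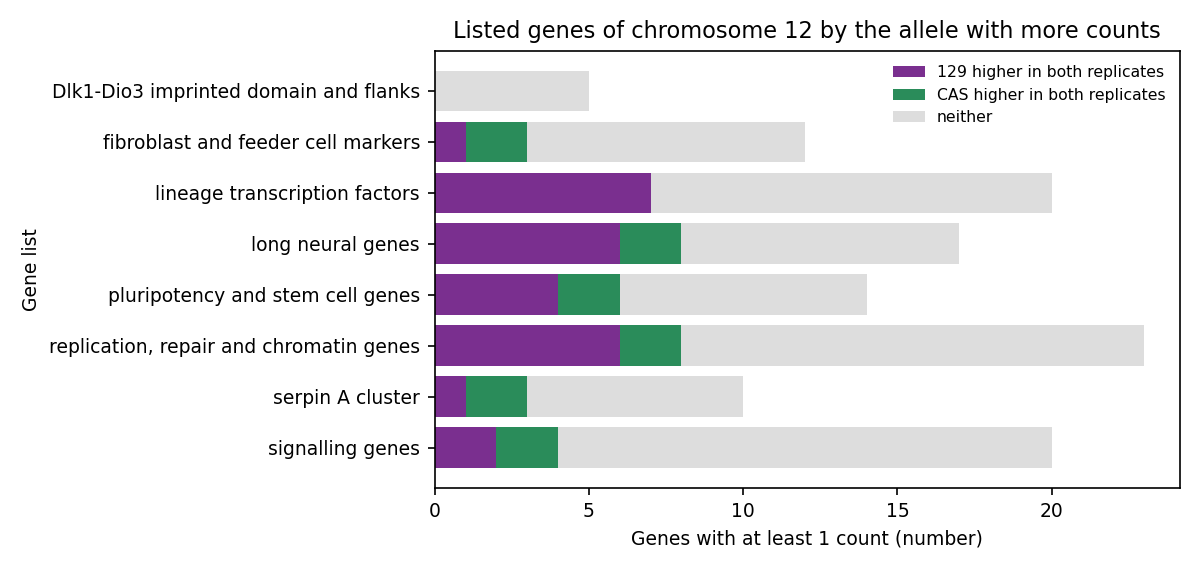
For 8 gene lists, bars show how many genes with at least 1 count had more 129 counts in both replicates (purple), more CAS counts in both (green) or neither (grey). The lineage transcription factors have 7 purple and 0 green genes, and in each of the 8 lists the grey class is the largest.

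The replicates differed in where along the region they had counts. R2 held 1.43 times the counts of R1 in the region, against 1.32 times in the other windows. The ratio was highest where genes were few: the segment from 60 to 65 Mb, with 13 gene starts, had 59 on 129 and 64 on CAS in R1 and 170 and 153 in R2, a ratio of 2.63. In the segment from 110 to 112 Mb, with 72 gene starts, the ratio was 0.83. Across the 94 bins the ratio and the number of gene starts correlated with Spearman's rho = -0.811 (Pearson's r = -0.677), as a description across bins of the same 2 libraries. The mean 129 share of a bin had rho = -0.01 with its gene starts and rho = 0.143 with the ratio. Bins on the 129 side had a median of 9.5 gene starts and those on the CAS side 11. In 335 windows of the region counts were found in R2 alone, and in 47 in R1 alone. The part of this difference in the allelic values was not tested.

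**Figure D5:**
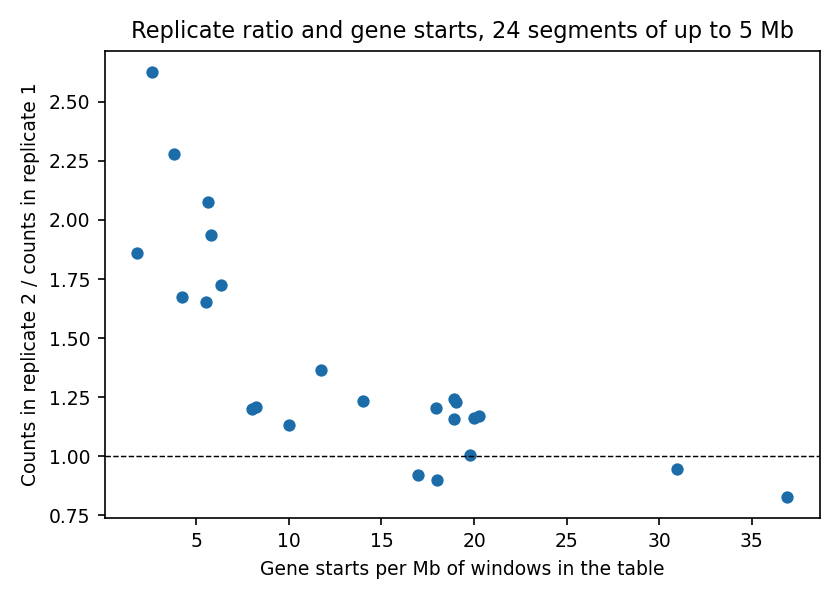
For the 24 segments, the ratio of counts in R2 to R1 (y) is plotted against gene starts per Mb of windows in the table (x), with a dashed line at equal counts. Segments with few gene starts lie highest, up to 2.63, and the segment with the most lies lowest, at 0.83.

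Only the first start of a gene in a window, on its strand, was taken, though Cipc, Ttc7b and Ptpn21 had 2 there. The 13 gene starts so taken in windows with a difference of 2 or more the same way in each replicate, 10 with more 129 and 3 with more CAS counts, comprised 8 promoters with 18 to 39 CpG in 250 bases and 5 with 2 to 6 (Cdhr3, both Eml1 starts, Unc79 and Ston2). Their median was 20 CpG, against 10 over the 21263 promoters of coding genes, and the median GC content was 62.8% against 55.6%. They were not set against other windows with as many counts. At the edges of the region, the last 1 Mb inside held 33 on 129 and 30 on CAS, then 29 and 26, and the first 1 Mb beyond it 41 and 35, then 28 and 36. At the other edge the first 500 kb inside held 24 and 26, then 36 and 27, and the last 500 kb of the heavy-chain interval 18 and 26, then 25 and 31.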

How the data were processed

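The deposited table gives counts, per the file headers 1 column per allele and replicate (4 columns) over 50 kb windows; 0 further per-sample columns were present. Bowtie2, SAMtools, bedtools, MACS2 and the mm10 build are named in the submitters' processing notes. What is counted and how it was assigned to an allele are not given in the labels or file headers. Genes and promoters are those of RefSeq for GRCm38.p6 (the patched mm10 assembly); coordinates are 1-based, and a gene's count sums all windows it overlaps.

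Bins were tested with edgeR 4.0.16 (R 4.3.3; quasi-likelihood, TMM, filterByExpr with minimum count 10, Benjamini-Hochberg over the table), windows likewise without that filter; DESeq2 1.42.0 was an alternative. Both allele columns of a replicate describe the same library, which pairs them; their deviations from the allele means correlated at r = 0.221 over windows of the region. On simulated Poisson counts with 200 altered bins, edgeR recovered 0% at 1.5-fold (21% with the block) and 82.5% at 2-fold (83%) among 2084 and 2074 bins, with 0 and 10 false calls (2 and 8). Of 31566 and 31619 windows, 4% of those altered 4-fold and 41% of those altered 16-fold were recovered.

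Named genes overlap the most unbalanced windows, longest runs or bins with the largest shared ratio, or belong to the 8 lists; others are marked, and some are not reported here. Of 151 list entries 6 lay outside the region, and 3 listed genes had no window. The region, stretches and lists were chosen with earlier results of these data known.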

Additional observations from a re-analysis of the deposited data

How the results depend on the processing

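The 129 share of the region stayed within the spread of the replicates under every alternative tried (50.6 to 52.2%; 50.5 and 52.5% without replicate 2 and 1). With the replicate block, other size factors, 1 library size per replicate, no filter, and bins of 500 kb or 2 Mb with and without the block, edgeR called 0 bins of the region, as did the DESeq2 Wald test; the block changed no call in the region. edgeR without a replicate has no residual degrees of freedom and was not run.

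Counts of windows, runs and bins moved with the rule, since a stricter or looser rule keeps fewer or more. Unbalanced windows (5 on 129, 1 on CAS) numbered 27 and 12 at a difference of 2, 2 and 0 at a difference of 4, and 12 to 62 and 11 to 29 in 1 replicate alone. Runs (1 and 0) numbered 27 and 13 at 2 windows, 53 and 17 with replicates summed, and 12 to 47 and 5 to 15 in 1 replicate alone. Bins (32 and 19) numbered 21 and 9 at 2 Mb, and 48 to 61 and 37 to 45 in 1 replicate alone. With 129 scaled to the genome-wide CAS total they numbered 47 and 19. Segments (10 and 3) numbered 14 to 16 and 7 to 9 in 1 replicate alone. Listed genes (27 and 12) numbered 12 and 12 with the gene start's window alone and 21 and 20 with the next windows added. In 1 replicate alone they numbered 46 to 50 and 31 to 33. With 129 scaled to the genome-wide CAS total, a step that turns ties toward 129, they numbered 58 and 12. For the listed genes that scaling was chosen after seeing the data, as were the alternatives for segments. Depth limits all of these, at a mean of 0.884 to 1.34 counts per window and allele.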
